A study of Homo sapiens with 12 samples.

Results

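The 27 genes described here encode nucleolar proteins of ribosome production (11 genes), subunits of RNA polymerases I, II and III (9 genes), the polymerase III repressor MAF1, and RNA helicases of the DDX (5 genes) and DHX (1 gene) families. They were taken by gene symbol from the 1676 genes of the deposited table, pseudogenes excluded. Rows were picked by symbol alone, but the families were chosen with earlier results of these data known. Every row of that table had also first passed a selection by the authors on measured values, described below. GENCODE release 29 holds 136 protein-coding genes whose symbols fit the same pattern, so most of these families are not among the rows analysed here. The cells were SH-SY5Y, a human neuroblastoma line that has its own tau gene, and each group carried 1 transfected tau construct for 24 h before RNA was taken. Tau-WT was the reference of the design. The other groups were Tau-K174Q, then Tau-S199E, and a construct with both changes, Tau-K174Q-S199E. Each had 3 libraries, 12 in all. In K174Q a lysine of tau is replaced by glutamine, a change often used to imitate acetylation, and in S199E a serine is replaced by glutamate, a change often used to imitate phosphorylation. No group without a tau construct was among the samples. For the vector, its promoter and the share of cells that took it up, nothing is given in the sources used here.

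Ribosome production begins in the nucleolus, where RNA polymerase I copies the ribosomal RNA genes into a long precursor. Small nucleolar RNAs and their proteins modify that precursor, the small-subunit processome and many helicases cut and fold it, and RNA polymerase III supplies the 5S RNA and the transfer RNAs. RNA polymerase II makes the messenger RNAs of all the proteins involved. Tau is best known as a microtubule-binding protein of axons, and part of it is found in the nucleus and nucleolus.

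Each value below is a standardised value: the authors' table gives every gene a mean of 0 and an SD of 1 over the 12 libraries. A difference between groups is therefore in units of that gene's own SD, and levels cannot be compared between genes. Libraries are called by construct and by the library number in the table, 1 to 3 for Tau-WT, 4 to 6 for Tau-K174Q, 10 to 12 for Tau-S199E and 16 to 18 for Tau-K174Q-S199E. Depth is unknown, since no counts were analysed here. Libraries 12 and 18 stood apart. Tau-S199E library 12 lay farther from the gene means than libraries 10 and 11 (SD over the 27 genes of 1.57, 0.75 and 0.76), and Tau-K174Q-S199E library 18 was nearer to the Tau-S199E mean in 22 of the 27 genes, against 2 and 5 for libraries 16 and 17. The 1676 genes had been selected: the deposited adjusted p was at most 0.0499 in all of them, for a contrast that the header does not name. None of 18 markers of adrenergic neuroblastoma cells is among them, so the labelled cell type could not be checked. Of 18 markers of the mesenchymal state that such cultures can also hold, 3 are present (CD44, S100A6 and SNAI2). All 3 were higher with Tau-S199E (SNAI2 was not called without library 12 or Tau-WT library 2), and their summed standardised value ran from -3.96 to -2.29 in Tau-WT, 0.84 to 1.46 in Tau-K174Q, 1.91 to 5.50 in Tau-S199E and -3.00 to 2.02 in Tau-K174Q-S199E. The part of such cells in the results below was not tested. In bulk RNA, fewer cells of a type and less RNA per cell cannot be told apart.

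**Figure D1:**
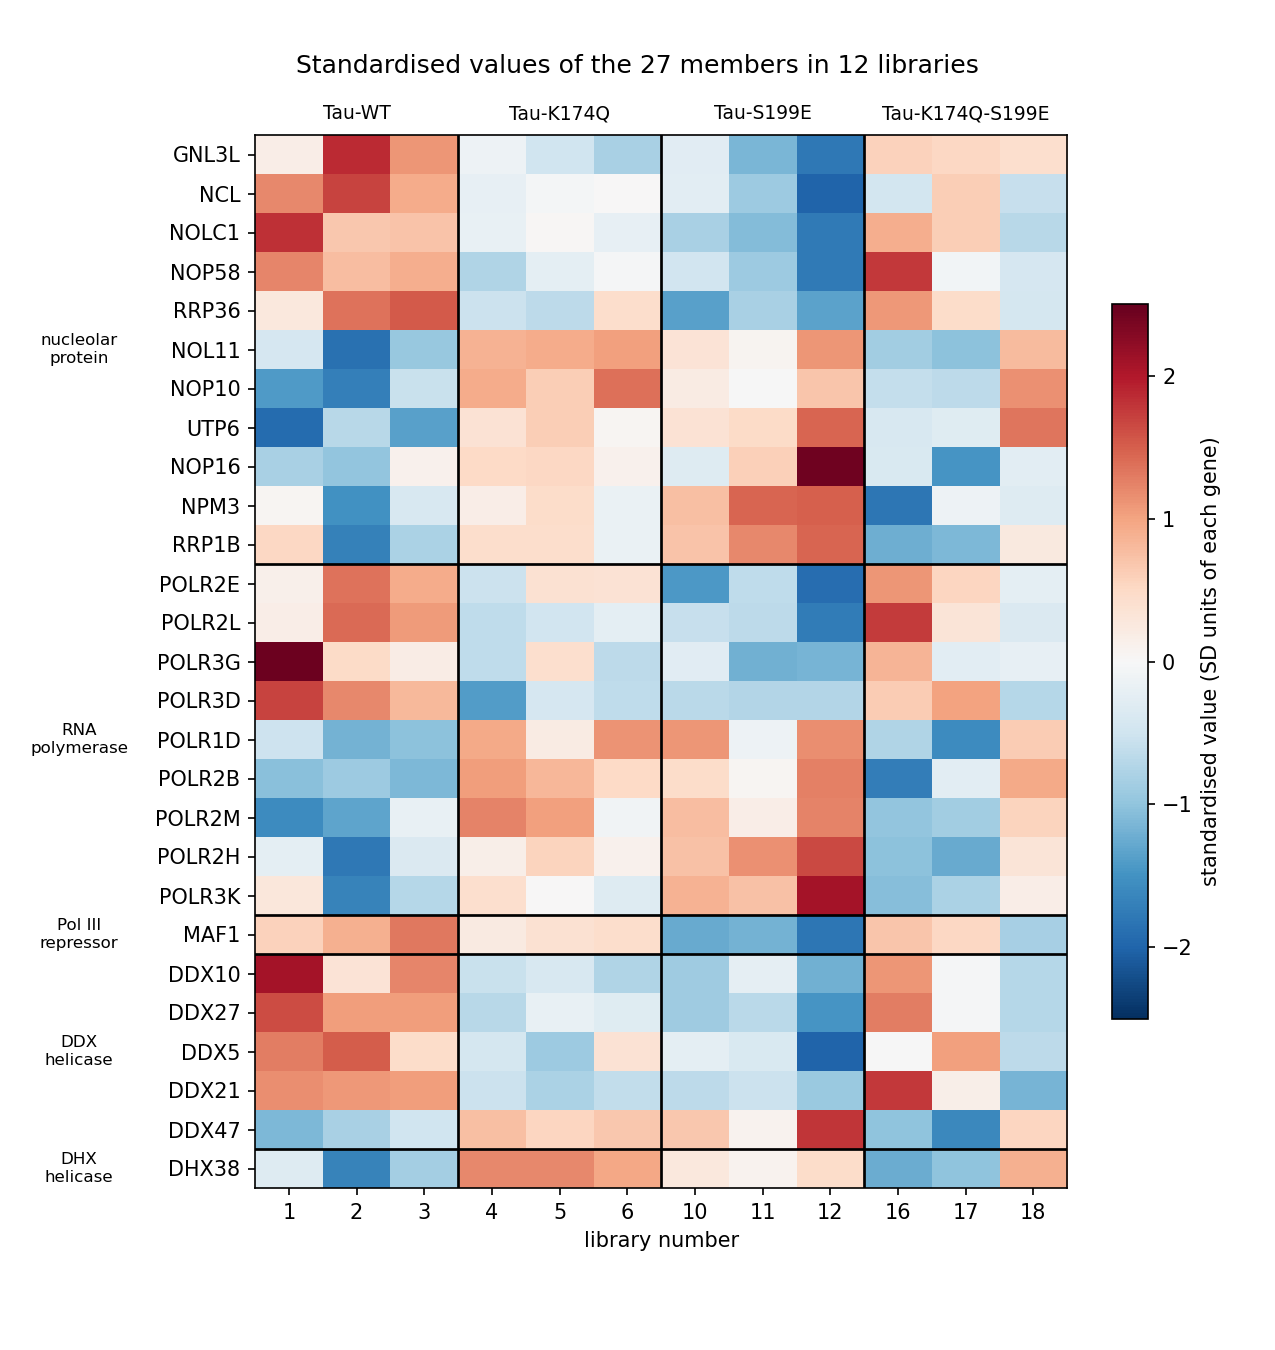
Standardised value of each of the 27 genes (rows, grouped by role) in each of the 12 libraries (columns, grouped by construct), on a colour scale in SD units. Genes of every role except the single DHX gene and MAF1 fall into a set that is high in Tau-WT and low in Tau-S199E and a set with the opposite order, and library 18 looks unlike libraries 16 and 17 in most rows.

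With Tau-S199E, 25 of the 27 genes differed from Tau-WT at a limma adjusted p under 0.05, 11 higher and 14 lower. Among all 1676 genes 90.0% passed that test, 48.3% higher and 41.8% lower, so the members' share is near that of the table and is not a result about these families. In the authors' deposited table every member's log2 fold change has the opposite sign to this difference, 27 of 27, as it does in all 1676 rows; the rows were thus selected on something that follows this contrast, and the test is a description. Without Tau-S199E library 12, 9 members were called (1 higher, 8 lower; 49.7% of the table), and without Tau-WT library 2, 13 (2 higher, 11 lower; 63.0%). Most of the calls of higher members were thus lost without 1 library, and UTP6 alone among them was kept without library 12. Without libraries 12 and 18 together, a choice made after the data were seen, 23 members were called (79.4% of the table). Library 18 is in neither group compared and enters this test only through the residual variance, which all 12 libraries share. What the values do give is which genes of each machine moved which way. The nucleolar proteins split into 5 higher, 5 lower and 1 not passing, the polymerase subunits into 5 higher and 4 lower, and the DDX helicases into 1 higher and 4 lower. The labels do not say that the replicates came from separate cultures, so the p values rest on a spread between libraries that may be technical.

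**Figure D2:**
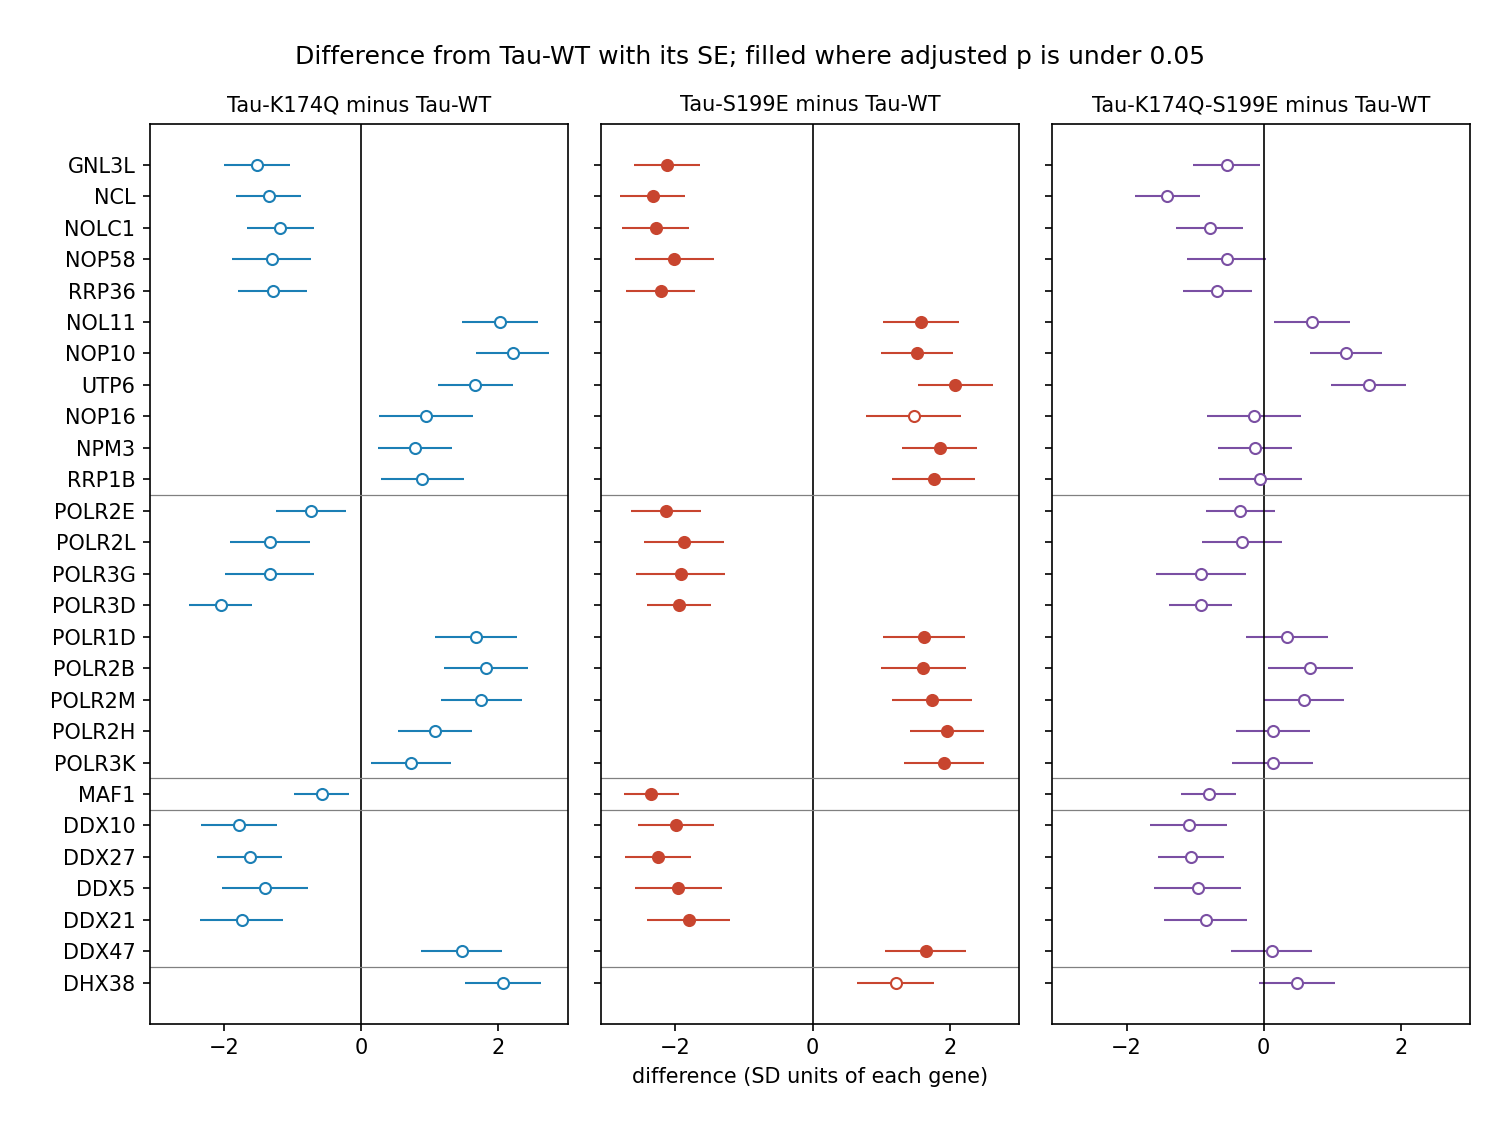
Difference of each construct from Tau-WT in SD units (horizontal axis) for the 27 genes (vertical axis), with bars of 1 standard error from the fit to 12 libraries and filled points where the adjusted p was under 0.05. The Tau-S199E differences run from -2.35 (MAF1) to 2.08 (UTP6), and those of Tau-K174Q-S199E lie nearer to 0 for most genes.

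Among the nucleolar proteins, nucleolin, the box C/D protein NOP58 and the snoRNP chaperone NOLC1 fell with Tau-S199E, while UTP6 and NOL11 of the small-subunit processome and the nucleoplasmin-family NPM3 rose. NCL (nucleolin), an abundant RNA-binding protein of the nucleolus, stood at 1.21, 1.68 and 0.92 in Tau-WT libraries, -0.20, -0.05 and 0.02 in Tau-K174Q, -0.27, -0.91 and -1.99 in Tau-S199E, and -0.45, 0.62 and -0.57 in Tau-K174Q-S199E. The 3 Tau-WT libraries were thus above all 9 others, and NCL fell by 2.33 SD units (SE 0.47, adjusted p = 0.01) with Tau-S199E. NOLC1, a chaperone of small nucleolar ribonucleoproteins that shuttles between nucleolus and cytoplasm, was at 1.82, 0.67 and 0.70 with Tau-WT, -0.18, 0.03 and -0.21 with Tau-K174Q, -0.82, -1.09 and -1.77 with Tau-S199E, then 0.91, 0.61 and -0.69 with both changes. It fell by 2.29 (SE 0.49, adjusted p = 0.01), and only the library 18 value of the double construct lay below the Tau-WT values by more than 1 SD unit. NOP58, a core protein of the box C/D particles that guide 2′-O-methylation of ribosomal RNA, was at 1.22, 0.77 and 0.90, then -0.75, -0.25 and -0.02, then -0.48, -0.91 and -1.77, and last 1.76, -0.07 and -0.41, in the same order of constructs. Its Tau-S199E libraries all lay below its Tau-WT libraries, while 1 double-construct library was the highest of the 12. NOP58 fell by 2.02 (SE 0.58, adjusted p = 0.016), a call that was lost without Tau-S199E library 12 (adjusted p = 0.056). RRP36, a factor of early 18S processing, was at 0.25, 1.35 and 1.53 with Tau-WT, -0.53, -0.65 and 0.45 with Tau-K174Q, -1.36, -0.81 and -1.33 with Tau-S199E, then 1.09, 0.46 and -0.44 with both, and it fell by 2.21 (SE 0.50, adjusted p = 0.010). GNL3L, a nucleolar GTPase related to nucleostemin, fell by 2.12 (SE 0.48) and was the fifth that fell, with its call kept whichever compared library was left out.

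In the other direction, UTP6, a component of the small-subunit processome, was at -1.91, -0.69 and -1.35 in Tau-WT, 0.36, 0.62 and 0.06 in Tau-K174Q, 0.36, 0.47 and 1.45 in Tau-S199E, and -0.41, -0.30 and 1.34 in Tau-K174Q-S199E. All 9 mutant-construct libraries lay above the 3 Tau-WT libraries, and UTP6 rose by 2.08 (SE 0.54, adjusted p = 0.013) with Tau-S199E. NPM3, a nucleoplasmin-family protein that binds nucleophosmin, was at 0.04, -1.51 and -0.41 with Tau-WT, 0.16, 0.46 and -0.16 with Tau-K174Q, 0.75, 1.45 and 1.48 with Tau-S199E, then -1.81, -0.12 and -0.33 with both. NPM3 was high only in the 3 Tau-S199E libraries, which lay above all 9 others, and it rose by 1.85 (SE 0.54, adjusted p = 0.017). RRP1B, a nucleolar protein related to the yeast ribosomal RNA processing factor Rrp1, was at 0.52, -1.69 and -0.79, then 0.44, 0.44 and -0.17, then 0.71, 1.19 and 1.45, and last -1.23, -1.13 and 0.25, in the same order of constructs. It too had its 3 highest values in Tau-S199E, with a rise of 1.77 (SE 0.60, adjusted p = 0.026). Without library 12 the adjusted p was 0.055 for NPM3 and 0.079 for RRP1B; without Tau-WT library 2 it was 0.050 for NPM3, just past the threshold, and 0.080 for RRP1B. RRP1B also lost its call without Tau-WT library 3 (adjusted p = 0.062) and without Tau-S199E library 11 (0.055). NOL11 and NOP10 rose by 1.58 (SE 0.55) and 1.52 (SE 0.53), and both lost the call without library 12 (adjusted p = 0.094 and 0.086), library 10 (0.050, just past the threshold, and 0.052) or Tau-WT library 2 (0.090 and 0.083). NOL11 also lost it without Tau-WT library 3 (0.055) and NOP10 without Tau-WT library 1 (0.068). NOP16, named because it was the only nucleolar member that did not pass, differed by 1.47 (SE 0.69, adjusted p = 0.068). Its Tau-S199E library 10, at -0.33, lay below Tau-WT library 3, at 0.10. Without library 10 NOP16 was called, at 2.09 (adjusted p = 0.027), and without library 12 its difference was 0.70 (adjusted p = 0.21). It was not called without any of the other compared libraries.

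NCL and NOP10 are examples of a fallen and a risen nucleolar member and do not stand for the others. The 250 bases before their RefSeq starts are shown with the E-box CACGTG, the palindromic site of MYC and related factors, in capitals. The risen UTP6, NOL11 and NPM3 do not have the E-box in their windows. For 6 of the 27 members, MAF1 and POLR3D among them, no start was searched, so their motifs were not tested. The comparison shares below may rest on starts chosen in another way than those of the members. Starts among the RefSeq promoters (GRCh38.p14) were searched for the other 21 members, 26 starts in all. The E-box was found before 3 of these 26 starts (1 each of NOP10, DDX5 and DDX21), against 6.34% of all 35116 starts and 8.55% of those of genes in the table. NOP10 has it at positions -170 and -11 from the start, and NCL does not have these letters in its window. The window of NCL is chr2:231464485-231464734 and that of NOP10 is chr15:34343137-34343386, both on the minus strand and written 5′ to 3′.
NCL: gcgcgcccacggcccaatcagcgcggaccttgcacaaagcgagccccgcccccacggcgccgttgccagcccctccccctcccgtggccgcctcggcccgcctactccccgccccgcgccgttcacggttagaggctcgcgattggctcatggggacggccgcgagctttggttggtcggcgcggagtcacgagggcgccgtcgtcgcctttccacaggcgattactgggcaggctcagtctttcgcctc
NOP10: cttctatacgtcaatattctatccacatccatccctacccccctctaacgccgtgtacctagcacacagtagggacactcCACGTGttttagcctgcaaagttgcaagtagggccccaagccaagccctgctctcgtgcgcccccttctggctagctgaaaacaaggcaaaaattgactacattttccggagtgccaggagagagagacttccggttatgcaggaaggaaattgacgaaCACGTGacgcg
NOP10 rose while DDX5 and DDX21 fell with Tau-S199E, so the 3 members in which an E-box was found did not share a direction. The ETS-type motif CCGGAAG, searched on both strands and not overlapping the E-box, was found before 6 of the 26 starts (23.1%), against 16.6% of the starts of genes in the table and 8.52% of all starts.

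The RNA polymerase subunits also divided, and the division ran across the 3 enzymes. POLR2E, a subunit shared by all 3 RNA polymerases, was at 0.13, 1.35 and 0.93 in Tau-WT, -0.54, 0.38 and 0.37 in Tau-K174Q, -1.44, -0.64 and -1.91 in Tau-S199E, and 1.10, 0.54 and -0.25 in Tau-K174Q-S199E. The 3 Tau-S199E libraries were the lowest of the 12, and POLR2E fell by 2.14 (SE 0.51, adjusted p = 0.011). POLR2L, another shared subunit, fell by 1.88 (SE 0.58, adjusted p = 0.020), a call lost without library 12 (0.068) or Tau-WT library 2 (0.061) or 3 (0.051). POLR2H, shared by the 3 enzymes as well, went the other way: it was at -0.24, -1.78 and -0.35, then 0.15, 0.56 and 0.11, then 0.73, 1.14 and 1.65, and last -1.03, -1.26 and 0.33, in the same order of constructs. Its Tau-S199E libraries were the 3 highest, and POLR2H rose by 1.96 (SE 0.54, adjusted p = 0.015). The fall of POLR2E and POLR2L and the rise of POLR2H are each in units of the gene's own SD, and the sizes cannot be set against each other. Without Tau-S199E library 12 the call of POLR2H was lost (adjusted p = 0.051).

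Within RNA polymerase III, which makes 5S and transfer RNAs, POLR3D and POLR3G fell and POLR3K rose. POLR3D was at 1.69, 1.2 and 0.80 with Tau-WT, -1.40, -0.42 and -0.64 with Tau-K174Q, -0.68, -0.74 and -0.74 with Tau-S199E, then 0.64, 1.01 and -0.72 with both, a fall of 1.95 (SE 0.46, adjusted p = 0.011). Its Tau-WT libraries and double-construct libraries 16 and 17 were high and all the others low; in the authors' deposited table it has the lowest adjusted p of the members, 0.000872. POLR3G, the form of a polymerase III subunit that prevails in stem and tumour cells, was at 2.45, 0.49 and 0.20, then -0.64, 0.41 and -0.65, then -0.28, -1.19 and -1.16, and last 0.86, -0.27 and -0.20, in the same order of constructs. Tau-WT library 1 was far above the other 11, and the fall of 1.92 (SE 0.65, adjusted p = 0.026) became 1.22 without it and was not called (adjusted p = 0.059). The call was also lost without Tau-S199E library 11 (adjusted p = 0.062) or 12 (0.076). POLR3K was at 0.29, -1.66 and -0.70 with Tau-WT, 0.41, 0.01 and -0.33 with Tau-K174Q, 0.87, 0.73 and 2.08 with Tau-S199E, then -1.07, -0.78 and 0.16 with both. Its 3 highest values were those of Tau-S199E, with a rise of 1.92 (SE 0.58, adjusted p = 0.019) that was not called without library 12 (0.065) or without Tau-WT library 2 (0.056).

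MAF1, which binds RNA polymerase III and represses it when nutrients or growth signals are short, fell with Tau-S199E. It was at 0.58, 0.90 and 1.32 in Tau-WT, 0.23, 0.39 and 0.44 in Tau-K174Q, -1.26, -1.19 and -1.80 in Tau-S199E, and 0.70, 0.52 and -0.83 in Tau-K174Q-S199E. The Tau-S199E libraries were the 3 lowest, and MAF1 fell by 2.35 (SE 0.40, adjusted p = 0.0097), a call kept when any 1 of the 6 libraries compared was left out. The Tau-K174Q libraries lay between the 2 groups, and their difference from Tau-S199E was 1.77 (SE 0.40, unadjusted p under 0.05, adjusted p = 0.18).

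The remaining polymerase members belong to RNA polymerases I and II. POLR2M, a protein bound to RNA polymerase II, was at -1.56, -1.32 and -0.18 with Tau-WT, 1.25, 1.02 and -0.08 with Tau-K174Q, 0.77, 0.16 and 1.24 with Tau-S199E, then -0.99, -0.86 and 0.55 with both. It rose by 1.74 (SE 0.59, adjusted p = 0.025), and all Tau-K174Q and Tau-S199E libraries lay above Tau-WT, while libraries 16 and 17 lay among the Tau-WT values. Without library 12, 10, or Tau-WT library 1 or 2, the adjusted p was 0.082, 0.054, 0.074 and 0.071. POLR2M shares its strand and part of its locus with GCOM1, so its value is uncertain where the counting split their reads. POLR2B, the second-largest subunit of RNA polymerase II, rose by 1.62 (SE 0.62, adjusted p = 0.036), and POLR1D, shared by polymerases I and III, by 1.63 (SE 0.60, adjusted p = 0.033). Without library 12 the adjusted p was 0.12 for POLR2B and 0.099 for POLR1D. POLR2B also lost its call without library 10 or any of the 3 Tau-WT libraries (0.065 to 0.079), and POLR1D without library 10 or Tau-WT library 2 or 3 (0.074 to 0.086).

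**Figure D3:**
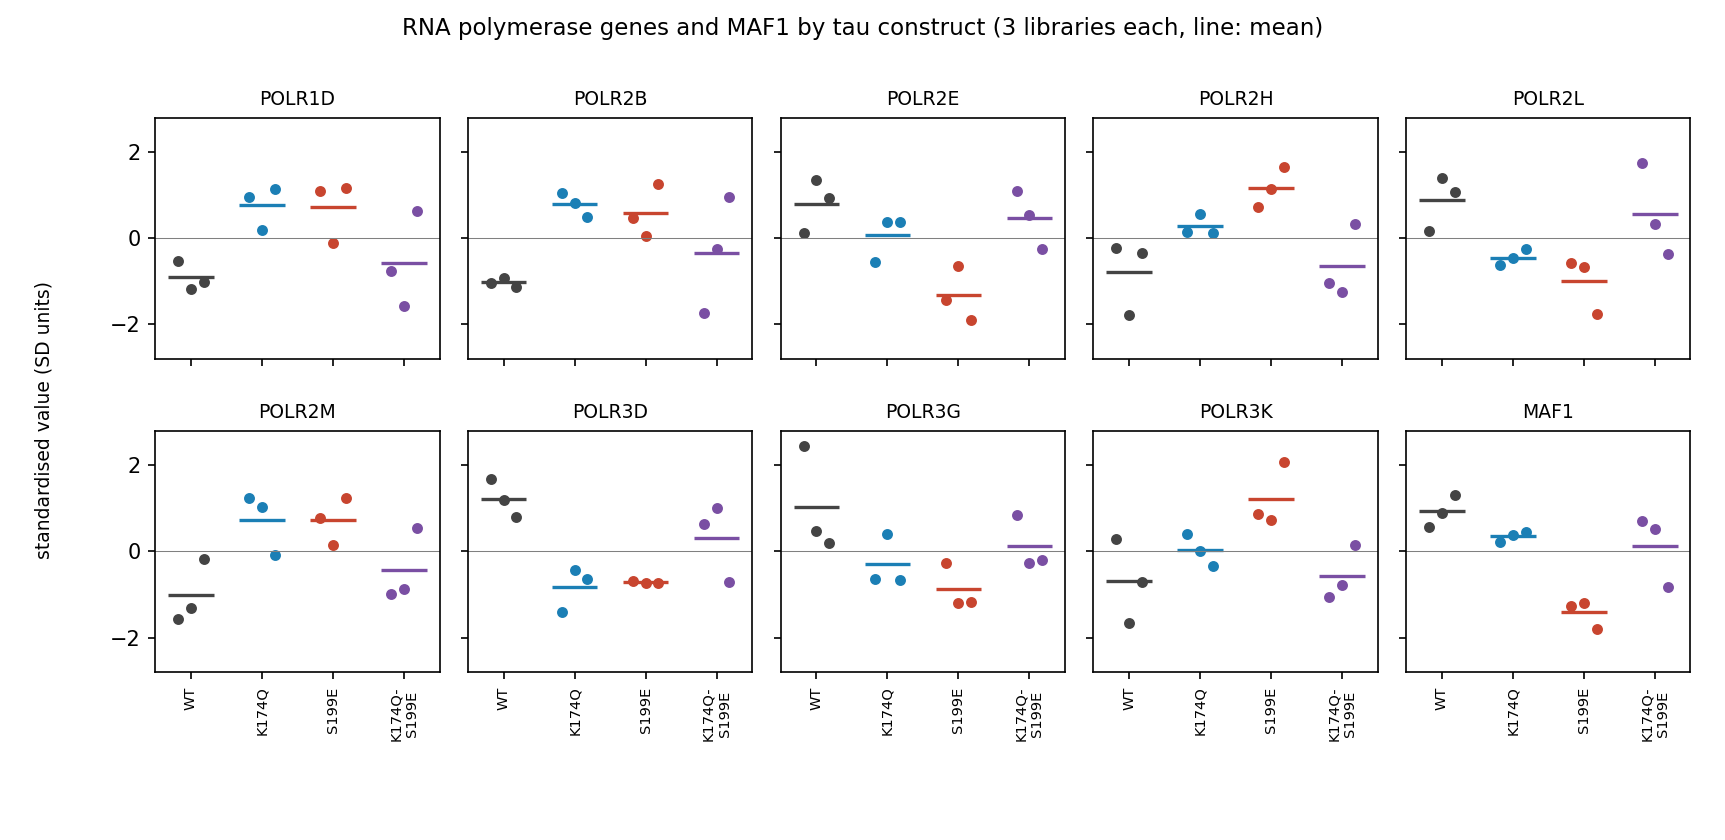
Standardised value in SD units (vertical axis) of polymerase genes in the 12 libraries, by construct (horizontal axis), with each point a library and the bar the group mean. POLR2E, POLR3D and MAF1 are lowest or low in Tau-S199E, POLR2H and POLR3K are highest there, and in every panel but POLR3G the third double-construct library lies on the Tau-S199E side of the other 2.

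Of the 5 DDX helicases, which remodel RNA with the energy of ATP, 4 fell and DDX47 rose with Tau-S199E. Their motif II, which gives the DEAD-box family its name, binds magnesium and ATP. It is shown as coding sequence with 18 bases on each side, and the 12 capitals mark the motif. In DHX38, a splicing helicase of the DEAH family, they mark the corresponding motif. In DDX21 they encode D-E-V-D and not D-E-A-D. The stretches were read from the coding sequence of GENCODE release 29 transcripts, each found once in its gene.
DDX10: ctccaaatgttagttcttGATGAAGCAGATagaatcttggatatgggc
DDX21: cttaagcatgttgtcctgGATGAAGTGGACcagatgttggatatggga
DDX27: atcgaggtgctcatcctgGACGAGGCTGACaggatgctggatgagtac
DDX47: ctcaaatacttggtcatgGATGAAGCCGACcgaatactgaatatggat
DDX5: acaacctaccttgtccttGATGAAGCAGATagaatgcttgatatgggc
DHX38: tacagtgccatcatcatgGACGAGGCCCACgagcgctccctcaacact
DDX10 and DDX5, which fell, have the same 12 bases. DDX21 and DDX27, which also fell, have other bases there, as does DDX47, which rose. The library reads only the 3′ ends of transcripts, so these stretches show which genes are meant and were not themselves measured.

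DDX27, a helicase of large-subunit ribosomal RNA processing, was at 1.62, 1.05 and 1.04 with Tau-WT, -0.70, -0.18 and -0.30 with Tau-K174Q, -0.89, -0.68 and -1.48 with Tau-S199E, then 1.27, -0.04 and -0.71 with both. The Tau-WT libraries lay above all others but double-construct library 16, and DDX27 fell by 2.25 (SE 0.48, adjusted p = 0.01). DDX10, a helicase of small-subunit production, was at 2.09, 0.35 and 1.22, then -0.56, -0.40 and -0.74, then -0.89, -0.23 and -1.19, and last 1.11, -0.03 and -0.71, in the same order of constructs. All Tau-K174Q and Tau-S199E libraries lay below the Tau-WT libraries, and it fell by 1.99 (SE 0.56, adjusted p = 0.015). DDX5, a helicase with roles in transcription, splicing and ribosomal RNA processing, was at 1.27, 1.51 and 0.46 with Tau-WT, -0.43, -0.91 and 0.37 with Tau-K174Q, -0.24, -0.39 and -2.01 with Tau-S199E, then -0.01, 1.02 and -0.65 with both. Library 12 was the lowest of the 12 and far below the other 2 of its group, and DDX5 fell by 1.96 (SE 0.63, adjusted p = 0.022). DDX21, a nucleolar helicase that acts in ribosomal RNA transcription and processing, fell by 1.81 (SE 0.61, adjusted p = 0.025), a call lost without library 12 (0.072), library 10 (0.050, just past the threshold) or any of the 3 Tau-WT libraries (0.053 to 0.058). Without library 12 the adjusted p was 0.052 for DDX10 and 0.072 for DDX5, and DDX5 was also not called without Tau-WT library 1 (0.056) or 2 (0.066).

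DDX47, a helicase of early 18S processing, was at -1.12, -0.81 and -0.50 with Tau-WT, 0.76, 0.54 and 0.67 with Tau-K174Q, 0.67, 0.08 and 1.78 with Tau-S199E, then -1.0, -1.62 and 0.54 with both. Tau-WT and double-construct libraries 16 and 17 were low and the rest high, and DDX47 rose by 1.65 (SE 0.59, adjusted p = 0.030). That call was lost without library 12 (adjusted p = 0.100), without library 10 (0.052) and without Tau-WT library 1 (0.079) or 2 (0.068). DDX47 overlaps APOLD1 on the same strand, which limits the value as for POLR2M. DHX38 was at -0.32, -1.66 and -0.84 with Tau-WT, 1.2, 1.2 and 0.97 with Tau-K174Q, 0.26, 0.09 and 0.46 with Tau-S199E, then -1.24, -1.01 and 0.88 with both. Its highest values were those of Tau-K174Q, and its Tau-S199E difference, 1.21 (SE 0.56, adjusted p = 0.065), did not pass although the libraries did not overlap.

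**Figure D4:**
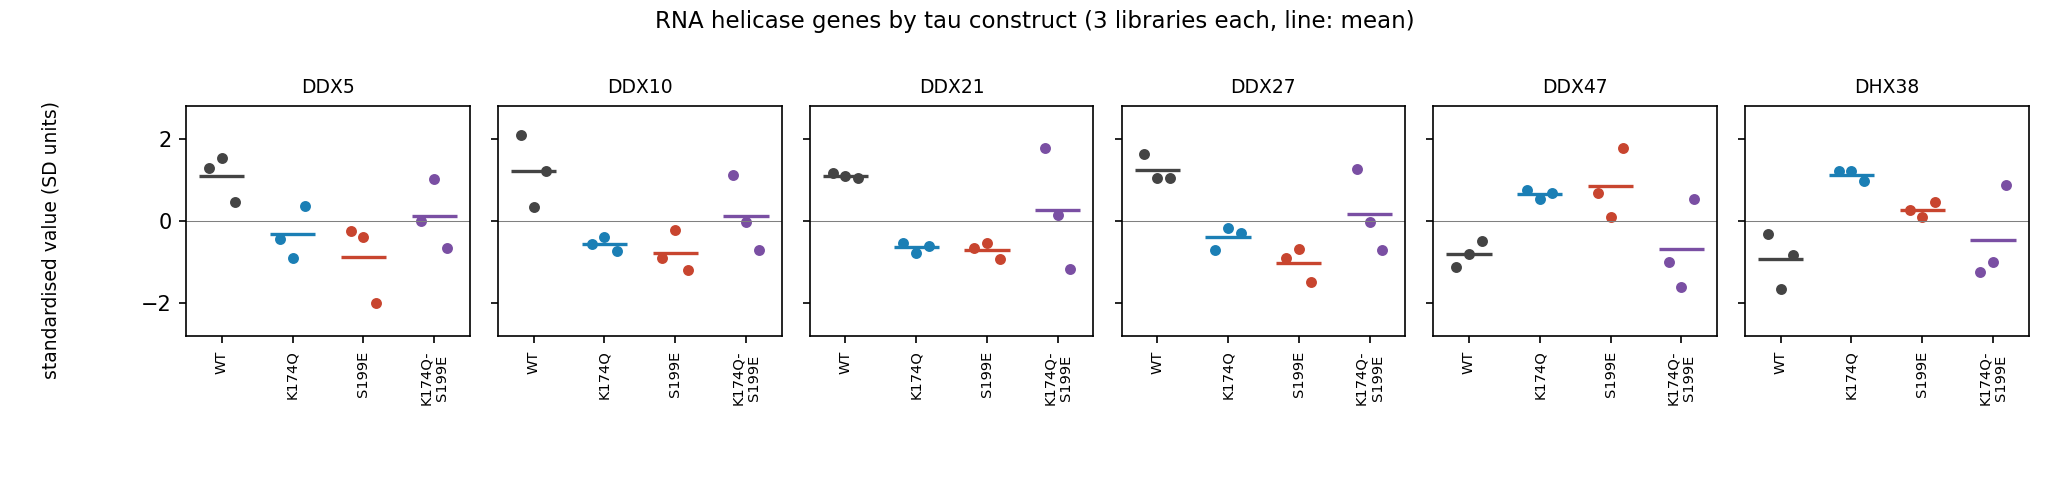
Standardised value in SD units (vertical axis) of the helicases in the 12 libraries, by construct (horizontal axis), with each point a library and the bar the group mean. DDX10, DDX27, DDX5 and DDX21 are high in Tau-WT and low in Tau-S199E, DDX47 is the reverse, and DHX38 is highest in Tau-K174Q.

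The libraries of Tau-S199E and Tau-WT did not overlap in 26 of the 27 genes, NOP16 being the exception, against 94.2% of the table. For the same genes Tau-K174Q and Tau-WT did not overlap in 21, against 80.7% of the table. The 6 with overlap were RRP36, POLR2E, POLR3G, NPM3, RRP1B and POLR3K. None of the 27 passed the test of Tau-K174Q against Tau-WT, and 0 of the 1676 genes (0%) did. At an unadjusted p under 0.05 there were 16 members (51.9% of the table), and moderated variances called 19 (59.9% of the table). The largest differences were those of NOP10 and DHX38. NOP10, the small protein that holds together the box H/ACA particles of pseudouridine synthesis, was at -1.42, -1.71 and -0.56 with Tau-WT, 0.92, 0.62 and 1.38 with Tau-K174Q, 0.20, -0.01 and 0.69 with Tau-S199E, then -0.60, -0.65 and 1.14 with both. Its Tau-WT libraries included the 2 lowest values, and its Tau-K174Q difference was 2.20 (SE 0.53, adjusted p = 0.066). That of DHX38 was 2.06 (SE 0.56, adjusted p = 0.066). Without Tau-K174Q-S199E library 18 the test of Tau-K174Q against Tau-WT called 13 members (40.3% of the table), and without library 16 it called 2 (2.86%). These libraries are in neither group compared, so the differences stay the same. They enter only through the residual variance, which all 12 libraries share. With only the 6 libraries compared, 12 members were called (48.9% of the table), so the 0 calls do not show that the groups are alike.

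Tau-K174Q was next placed on the line from the Tau-WT mean (0) to the Tau-S199E mean (1) of each gene. The median position of the members was 0.72, against 0.66 over the table. By gene the position ran from 0.25 for MAF1, 0.34 for POLR2E and 0.38 for POLR3K to 1.28 for NOL11, 1.45 for NOP10 and 1.70 for DHX38. In 7 genes Tau-K174Q lay beyond Tau-S199E (also POLR2B, POLR3D, POLR1D and POLR2M), where 15.5% of the table did. In the direct test of Tau-K174Q against Tau-S199E no member passed (0.0597% of the table did), 2 had an unadjusted p under 0.05 (16.1% of the table), and moderated variances called 0. These 2 were MAF1 and POLR2E, which differed by 1.40 (SE 0.51, adjusted p = 0.26). The libraries of these 2 constructs did not overlap in 10 members, against 36.2% of the table: DHX38, MAF1, NCL, NOLC1, POLR2E and RRP36 were higher with Tau-K174Q, and NPM3, POLR2H, POLR3K and RRP1B were lower.

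With both changes in 1 construct, no member passed the test against Tau-WT (0% of the table passed). There were 2 members at an unadjusted p under 0.05 (7.58% of the table), NCL and UTP6, and moderated variances called 0. UTP6 differed from Tau-WT by 1.53 (SE 0.54) and NCL by -1.41 (SE 0.47), each with an adjusted p of 0.53, and these were also the 2 members whose libraries did not overlap (11.6% of the table). Against Tau-S199E alone none passed either (0.119% of the table did). The largest differences were NPM3 at -1.98 (SE 0.54, adjusted p = 0.064) and POLR2H at -1.83 (SE 0.54, adjusted p = 0.065), and 14 members had an unadjusted p under 0.05 (56.4% of the table), with 15 called by moderated variances (68.8% of the table). Libraries did not overlap in 12 members (43.4% of the table), of which GNL3L, MAF1, NOLC1, NOP58, POLR2E, POLR2L, POLR3G and RRP36 were higher with both changes and NPM3, POLR2H, POLR3K and RRP1B lower. Without library 18, 21 members were called (78.5% of the table), NPM3 with an adjusted p of 0.023 and POLR2H with 0.018.

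Against Tau-K174Q, the double construct gave 0 calls among the members (0% of the table), 3 members at an unadjusted p under 0.05 (DHX38, NOL11 and POLR3D; 8.23% of the table) and 0 by moderated variances. DHX38 differed by -1.58 (SE 0.56) and DDX47 by -1.35 (SE 0.59), each with an adjusted p of 0.46. Libraries did not overlap in 4 members (11.2% of the table), GNL3L being higher and DHX38, NOL11 and NOP16 lower. Without library 18, 3 members were called (8.47% of the table), and DHX38 was among them, at -2.25 (adjusted p = 0.030). The interaction, in which the S199E difference on K174Q tau is set against that on wild-type tau, passed in all 27 members, with adjusted p from 0.018 to 0.037. It passed in 97.0% of the table, and the deposited fold changes carry its sign in every row, so the table appears to have been selected on it and the count says nothing particular of these genes.

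Library 18 stood apart from its group in these genes. On the line from Tau-WT (0) to Tau-S199E (1), the median position of the members was 0.018 in library 16, 0.20 in library 17 and 0.79 in library 18, against -0.0022, 0.20 and 0.74 over the table. In library 18, 22 members lay nearer to the Tau-S199E mean (80.0% of the table), in library 16 2 (6.56%) and in library 17 5 (15.0%), shares near those of all genes. The Tau-K174Q libraries 4, 5 and 6 had medians of 0.81, 0.73 and 0.60. By group mean the double construct was at 0.34 (0.32 over all genes), and it lay between Tau-WT and Tau-S199E in 24 members (91.8% of the table) and beyond Tau-WT in NPM3, RRP1B and NOP16 (8.0% of the table).

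**Figure D5:**
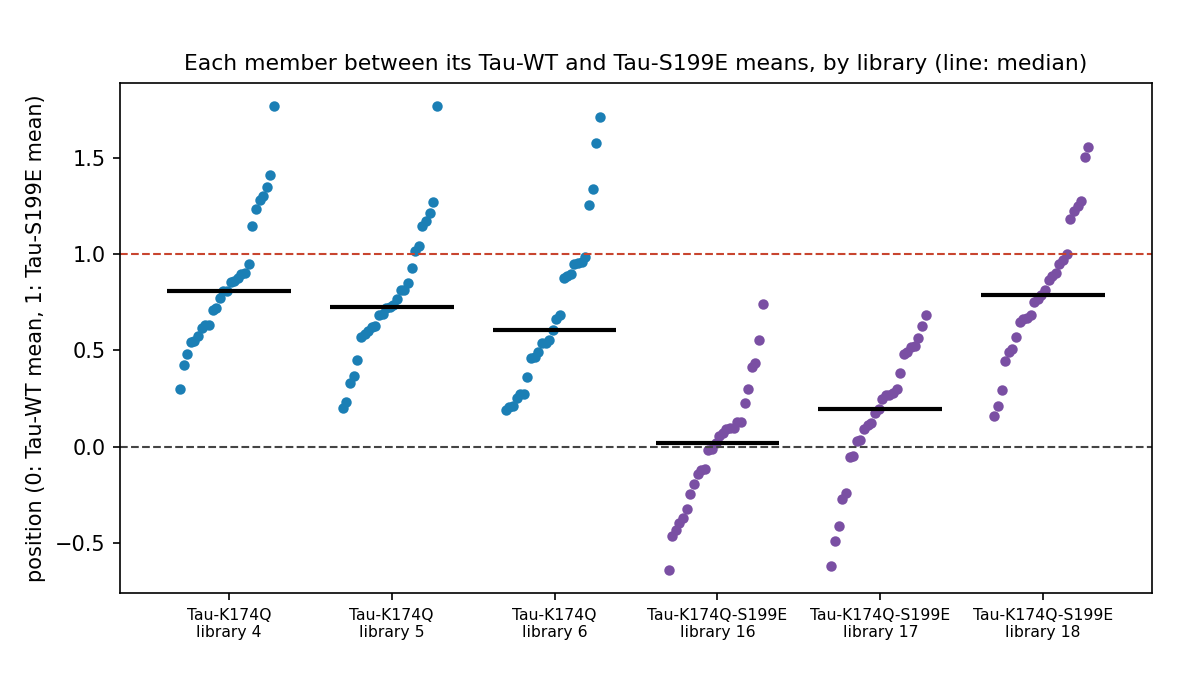
Position of each gene (points) in each Tau-K174Q and Tau-K174Q-S199E library (horizontal axis) on a scale where 0 is the gene's Tau-WT mean and 1 its Tau-S199E mean (vertical axis). The median of the members is 0.018 in library 16 and 0.79 in library 18, while the 3 Tau-K174Q medians lie between 0.60 and 0.81.

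Genes of the same pathways that carry other names were read for comparison. Of 87 other ribosome biogenesis factors 20 are in the table, and with Tau-S199E 13 were lower, 5 higher and 2 did not pass (TCOF1 and TBL3). Among all 1676 genes 90.0% passed that test, 41.8% lower and 48.3% higher, and the rows were selected as described above. The counts of these lists are thus a description and no result about the pathways. The median absolute difference of these 20 factors was 2.09, against 1.92 for the members and 1.99 for the table. These medians are in units of each gene's own SD and do not rank the sets by size of change. RBM28, a nucleolar RNA-binding protein, fell by 2.41 (SE 0.43), and DKC1, the pseudouridine synthase that works with NOP10, fell by 2.10 (SE 0.54) while NOP10 rose. CEBPZ rose by 2.27 (SE 0.50) and LAS1L, which takes part in cutting the internal spacer of the ribosomal RNA precursor, by 2.25 (SE 0.48). Of 30 factors of RNA polymerases I and III 3 are present: RRN3, which brings polymerase I to its promoter, rose by 2.06, CAVIN1, known for caveolae and for polymerase I release, fell by 2.33, and GTF3C1 differed by 0.95 (adjusted p = 0.18). Of 32 general factors of polymerase II, SUPT5H rose by 1.74 and NELFB fell by 1.66. Of 17 exosome and TRAMP genes, EXOSC10 and EXOSC7 rose by 2.28 and 1.80 and MTREX, the helicase that feeds the exosome, fell by 2.08. Of 22 further RNA helicases, EIF4A3 rose by 2.09 and ZNFX1 fell by 1.57. Without library 12 the biogenesis factors gave 10 lower and 2 higher (CEBPZ and LAS1L), where 49.7% of the table was called. Without Tau-WT library 2 they gave 10 lower and 3 higher, where 63.0% of the table was called. EXOSC7 lost its call without library 12 or Tau-WT library 2 or 3, SUPT5H without Tau-WT library 2, ZNFX1 without any of the 6 but library 11, and NELFB without any 1 of the 6. None of these 30 genes passed against Tau-WT with Tau-K174Q or with both changes.

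The members lie on 17 chromosomes. Small nucleolar RNA genes lie inside 3 of them, with 3 in NCL (chr2:231453531-231483641, minus strand, GRCh38), 4 in NOP58 and 1 in NOL11, which is 11.1% of the members against 2.78% of the protein-coding genes in the table. NCL and NOP58 fell and NOL11 rose with Tau-S199E. A protein-coding gene on the other strand overlaps 10 members, among them DDX27, which overlaps ZNFX1; whether the counting used strand is not given in the sources used here, so the value of these genes is uncertain to that extent. Pseudogenes named after 7 members (DDX10, POLR3G, GNL3L, NCL, POLR2L, POLR3D and POLR3K) could share reads with them. The authors' deposited table puts 12 members in its cluster 1, 2 in cluster 2, 7 in cluster 3 and 6 in cluster 4. Over the 12 libraries the correlation of a member with the mean of its own cluster had a median of 0.91, as over all genes (0.91), with POLR3G lowest at 0.72 and DDX27 highest at 0.96, a description of genes that were clustered on these values. In the authors' deposited table the absolute log2 fold change of the members runs from 0.71 (DDX21) to 2.23 (DDX47), with a median of 1.27 against 1.36 over the table.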

How the data were processed

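RNA was measured in 12 libraries, 3 for each of 4 tau constructs, prepared from 400 ng of RNA each with a kit that reads 3′ ends of mRNA, per the labels' protocols. DESeq2, RSEM 1.2.31, STAR 2.5.3a and the build GRCh38 are listed in the submitters' processing notes without a role or order. Gene filter, transform, strand setting and contrast: not given in the sources used here. All 12 library columns are a score that the authors standardised per gene, as the values show. The deposited fold changes are log2 values and the deposited adjusted p-values are as the authors gave them, per the file headers. Standardising removed levels, depth and fold sizes.

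Members were the rows whose symbol fits the families' naming pattern. The members and gene lists were chosen with earlier results of these data known. One biogenesis symbol that names another gene here was dropped. Groups come from the labels, and columns were matched by construct. A linear model (limma 3.58.1, R 4.3.3; ordinary residual variance per gene, all 12 libraries, two-sided) was fitted to all 1676 genes, with Benjamini-Hochberg adjustment over them and a threshold of 0.05, and was tested on simulated data. The interaction was added after the table was seen. Alternatives were moderated variances, the compared libraries alone, medians, rows with a symbol, and leaving out libraries. Members given in full were NCL, NOLC1, NOP58 and MAF1, the 3 largest rises and falls with Tau-S199E in each role, and the 2 largest differences in each other comparison. GNL3L, POLR2L, POLR1D, POLR2B, DDX21, NOL11 and NOP16 fall outside that rule. Promoters are from RefSeq (GRCh38.p14), gene models from GENCODE release 29.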

Additional observations from a re-analysis of the deposited data

Results flagged for a closer look

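The interaction of K174Q and S199E passed the limma test in 27 of the 27 members, against 97.0% of the table. With 1 library left out it passed in 22 (76.0% of the table, without Tau-K174Q library 4) to 27 members. The sign of the deposited fold change equals that of the interaction in every row, so the rows appear to have been selected on it, and the count is no independent test that the S199E difference depends on K174Q.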

How the results depend on the processing

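Shares of the whole table called are in parentheses. The 25 calls (90.0%) of Tau-S199E against Tau-WT ranged from 9 (49.7%, without Tau-S199E library 12) to 26 (93.8%) when 1 library was left out, with 13 (63.0%) without Tau-WT library 2. They were 27 (98.4%) with moderated variances, 20 (72.0%) with only the 6 libraries compared and 23 (79.4%) without libraries 12 and 18 together. Tau-K174Q against Tau-WT, with 0 calls, gave 0 to 13 when 1 library was left out, with 13 (40.3%) without library 18 and 2 (2.86%) without library 16, 19 (59.9%) with moderated variances, 12 (48.9%) with only the 6 libraries compared and 18 (58.5%) without libraries 12 and 18 together. The double construct against Tau-S199E, also at 0, gave 0 to 21 when 1 library was left out (21, 78.5%, without library 18), 15 (68.8%) with moderated variances and 11 (43.6%) without both libraries. Against Tau-K174Q it gave 0 to 3 (3, 8.47%, without library 18), and 8 (26.9%) without both. Libraries 16 and 18 act on the test of Tau-K174Q against Tau-WT through the shared residual variance alone. Why library 18 stood apart was not tested. The double construct against Tau-WT and Tau-K174Q against Tau-S199E had 0 calls in every alternative run. Leaving out both libraries was chosen after seeing the data. Of 203 alternative values for 29 differences of single members, 0 changed sign, 25 lost the call and 3 gained it. Of the 19 members given in full for Tau-S199E against Tau-WT, 9 kept their side of the threshold whichever compared library was left out. No paired analysis was possible because the columns carry library numbers and not the labels' replicate numbers. Depth is unknown, so no interval from counting can be given, and no pseudocount, filter on low values or other scaling could be tried on standardised values.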
